A study of Homo sapiens with 6 samples.

Results

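A set of 10 genes of the death receptor pathway was followed in the RNA-seq libraries of HCCC9810 cells. They were chosen by symbol from the raw count table, and all 10 were found among its 19470 genes. The set holds the ligand gene TNFSF10, the receptor genes TNFRSF10A, TNFRSF10B, TNFRSF10D, FAS, TNFRSF1A and TNFRSF21, and the signaling genes FADD, CFLAR and RIPK1. HCCC9810 is an established human cholangiocarcinoma (CCA) cell line, and its cells are labelled as wild type. The control group received the vehicle DMSO, and the ILL group received isolinderalactone (ILL), a plant sesquiterpenoid lactone, at 20 μM. Both groups were collected after 24 h, with 3 libraries each. The labels do not say whether the 3 libraries of a group came from separate cultures, so p-values measure the spread between these libraries, which may be technical.

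Death receptors are members of the TNF receptor family that carry a death domain on their cytoplasmic side. When TRAIL, the product of TNFSF10, binds TNFRSF10A (DR4) or TNFRSF10B (DR5), or Fas ligand binds FAS, the adaptor FADD is recruited and brings procaspase-8 into a death-inducing complex. The CFLAR product, c-FLIP, resembles caspase-8, competes for the same complex and limits caspase activation. TNF receptor 1, encoded by TNFRSF1A, first gathers TRADD, RIPK1 and ubiquitin ligases into a membrane complex that signals to NF-κB, and a death-inducing complex forms when this arrangement is taken apart. Biliary epithelial cells express TRAIL receptors and FAS, and death receptor signaling is a known route of bile duct cell injury.

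Library totals ran from 34282764 to 37758569 counted reads. Libraries of the same group were further apart than counting error alone would make them (chi-square per degree of freedom from 5.09 to 11.5), so each counted as 1 replicate. Of 7 markers of biliary epithelium, 6 had a mean above 1 CPM (counts scaled to a common library size), with a summed level of 8800 to 9030 CPM in controls and 8520 to 9020 CPM with ILL. The summed level of 3 immune markers was 36 to 40.9 CPM in controls and 111 to 117 CPM with ILL. Among them, PTPRC and CD3E had at most 9 and 3 counts in any library, while CD68, a lysosomal membrane protein gene, was at 1285 to 1445 counts in controls and 3882 to 4029 with ILL. Hepatocyte and fibroblast markers summed to at most 16.9 CPM each, and endothelial markers to at most 0.971 CPM, in any library. The part of these markers in the results was not tested.

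ILL was compared with control to ask how the treatment changed these transcripts. TNFSF10 and CFLAR rose more than 2-fold, TNFRSF10B and RIPK1 rose by less than 2-fold, TNFRSF1A rose slightly, and TNFRSF10D and TNFRSF21 fell. TNFRSF10A, FAS and FADD did not pass the test. All 10 genes were among the 13066 tested with edgeR's quasi-likelihood test. Differentially expressed genes (DEGs) were those with an adjusted p below 0.05 whose fold change also exceeded 2 or lay below 0.5. These cutoffs are those of the study's methods. By that rule, 2 of the 10 genes were higher with ILL, against 12.5% of all tested genes, and 0 were lower, against 11.4% of all tested genes. DESeq2 also called 0 lower, where it called 1498 of its 15011 tested genes lower. With the adjusted p alone as the criterion, 5 were higher, against 36.2% of all tested genes, and 2 were lower, against 36.9%, which makes 7 in either direction, against 73.1%. At an unadjusted p under 0.05, 7 passed in either direction, against 74.6% of all tested genes, and 2 of them were lower. The groups did not overlap in CPM for 5 genes with higher ILL values, against 37.5% of all tested genes, and for 2 with lower ILL values, against 38%, or 7 of 10 in either direction, against 75.4%. The median log2 fold change of the 10 genes was 0.07 and that of all tested genes was -0.0012. The counts above rest on 10 genes, and nothing particular to the set is read from them. RNA of whole cultures was sequenced, in which fewer cells of a kind and less RNA per cell cannot be told apart.

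**Figure D1:**
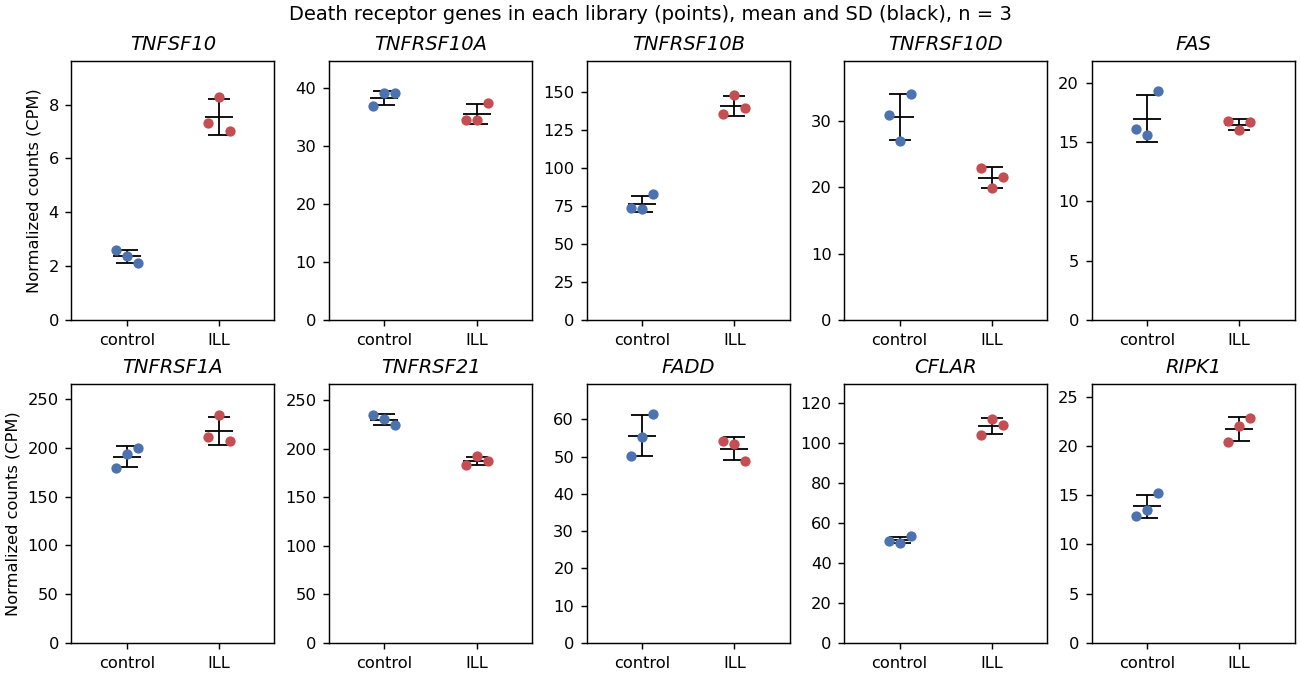
Normalized counts (CPM, each vertical axis starting at 0) of the 10 genes in control and ILL libraries, with points for libraries and black lines for the mean and SD (n = 3). TNFSF10, TNFRSF10B, CFLAR and RIPK1 lie higher in all ILL libraries, TNFRSF10D and TNFRSF21 lie lower, and TNFRSF10A, FAS and FADD overlap.

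Stretches of the promoters of CFLAR, TNFSF10 and RIPK1 are shown, picked because each gene rose with ILL and held a match. The matched letters resemble binding motifs of factors known to act on cytokine and death receptor genes. RefSeq promoter windows of GRCh38.p14, from 250 bases before to 50 bases after a start site, were found for 7 of the 10 genes, in 14 windows, some of which overlap. Promoters of TNFRSF10A, TNFRSF10B and TNFRSF10D were not searched. The searched letters, on either strand, were GGG, any 3 bases and TTCC for NF-κB, GAAA, any 2 bases and GAAA for the interferon response element, TGANTCA for AP-1, TGATGNAA for the combined C/EBP and ATF element, and GGGCGG for the GC box. Capitals mark the match within each run of 30 bases, written 5′ to 3′ on the strand of the gene.
CFLAR NF-κB match: cgcggggggcGGGGAATTCCgcagacagga
TNFSF10 interferon element match: gaggagcttcTTTCAGTTTCcctcctttcc
RIPK1 interferon element match: cgcgcggaggTTTCGGTTTCctcttttacg
The CFLAR run is at chr2:201118609-201118638 on the plus strand, and its match begins 97 bases before a RefSeq start site. Exons of other transcripts in GENCODE release 29 cover part of the run. The TNFSF10 run is at chr3:172523598-172523627 on the minus strand, with the match 187 bases before the start site. The RIPK1 run is at chr6:3068301-3068330 on the plus strand, with the match 67 bases before a RefSeq start site and farther before another. In GENCODE the CFLAR gene begins at 201116104 and the RIPK1 gene at 3063991, so both runs lie inside their genes. The CFLAR match overlaps the end of a GC box. The NF-κB letters were in 1 of the 14 windows and in 6.52% of 35116 promoter windows of all genes, and the interferon letters were in 3 of the 14, of which the pair of RIPK1 windows share a match, and in 3.57% of all windows. The AP-1 letters were in 3 of the 14 windows, in CFLAR, FAS and FADD, and in 7.71% of all windows. GC boxes were in 10 of the 14 and in 45% of all windows, and the C/EBP and ATF letters were in none of the 14 and in 3.62% of all windows. FAS and FADD, which did not pass the test, thus hold AP-1 letters as CFLAR does. TNFRSF1A, which rose slightly, was searched and held no match. A match of letters is not a measured binding site.

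TNFSF10 encodes TRAIL, a membrane-bound or shed cytokine that triggers apoptosis through DR4 and DR5. It had 101, 83 and 75 counts in control replicates 1 to 3 and 256, 285 and 245 counts in ILL replicates 1 to 3. Every ILL library held more than 2 times the counts of any control library. In normalized terms the mean went from 2.36 ± 0.24 to 7.53 ± 0.665 CPM (SD, n = 3 each). This 3.18-fold rise was 1.67 on the log2 scale, with a standard error (SE) of 0.19 and an edgeR adjusted p = 1.7e-08. TNFSF10 lies on chromosome 3 of GRCh38 from 172505508 to 172523507, on the minus strand.

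The TRAIL receptor genes lie side by side on chromosome 8, and TNFRSF10B rose while TNFRSF10D fell. TNFRSF10B, which encodes the signaling receptor DR5, spans 23020133 to 23069179 on the minus strand. It had 2862, 2568 and 2913 counts in controls and 4743, 5085 and 4870 with ILL. The groups were far apart, at 76.4 ± 5.19 CPM (SD, n = 3) in controls and 141 ± 6.28 CPM (SD, n = 3) with ILL. The 1.84-fold rise (log2 0.88, SE 0.06, edgeR adjusted p = 1.8e-12) was under the 2-fold cutoff, with a 95% interval of the log2 value from 0.76 to 1.01. An exon of RHOBTB2, on the opposite strand, overlaps TNFRSF10B, and whether reads were counted by strand is not given in the sources used here. RHOBTB2 itself fell, from 1689 to 2032 counts in controls to 1145 to 1311 with ILL.

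TNFRSF10A encodes DR4, the other signaling receptor for TRAIL, between 23190452 and 23225126. Its counts were 1431, 1370 and 1378 in controls and 1205, 1184 and 1308 with ILL. After normalization the groups overlapped, with 36.9 to 39 CPM in controls and 34.4 to 37.4 CPM with ILL. The log2 fold change of -0.11 did not pass the test (95% interval from -0.26 to 0.03, edgeR adjusted p = 0.16). With libraries scaled by size only it was -0.18 and passed (edgeR adjusted p = 0.024), as it did with limma on FPKM (reads scaled by gene length and library total).

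TNFRSF10D encodes a decoy receptor with a truncated death domain, which binds TRAIL without starting apoptosis. It spans 23135588 to 23164030 and had 1195, 948 and 1203 counts in controls against 803, 681 and 757 with ILL. All ILL libraries lay below all controls. TNFRSF10D fell by 0.51 on the log2 scale (SE 0.09, edgeR adjusted p = 1.9e-05), from 30.6 ± 3.52 CPM to 21.5 ± 1.58 CPM (SD, n = 3 each). TNFRSF10C, which encodes the lipid-anchored decoy and is not among the 10 genes, rose 2.16-fold (log2 1.11, SE 0.18, edgeR adjusted p = 4.2e-06) at a low level, with 108 to 163 counts in controls and 263 to 337 with ILL. Its log2 fold change was 0.97 without control replicate 2 and 0.99 without ILL replicate 3, under the 2-fold cutoff. The extracellular parts of these receptors are similar in sequence, and reads shared between the genes could have been split by the authors' counting.

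Expressed as shares of the summed FPKM of TNFRSF10A, TNFRSF10B, TNFRSF10C and TNFRSF10D, TNFRSF10B made up 42.7% ± 0.375 (SD, n = 3) in controls and 58.3% ± 2.24 (SD, n = 3) with ILL. The decoys TNFRSF10C and TNFRSF10D together made up 26.3%, 23.1% and 26.9% in control libraries and 20.5%, 18.2% and 21.1% in ILL libraries. The decoy share was thus lower in every ILL library than in any control library, but the decoys moved in opposite directions. TNFRSF10C went from 2.83 ± 0.555 to 5.83 ± 0.794 FPKM, and TNFRSF10D from 8.86 ± 0.995 to 5.93 ± 0.473 FPKM (SD, n = 3 each). As shares, TNFRSF10C went from 6.15% ± 0.881 to 9.87% ± 1.16, and TNFRSF10D from 19.3% ± 1.21 to 10.1% ± 0.934 (SD, n = 3 each). TNFRSF10A went from 31.9% ± 1.96 to 21.8% ± 0.742 (SD, n = 3 each). With exon lengths from GENCODE the TNFRSF10B share was 38.5% ± 0.368 and 54.8% ± 2.24, and the decoy share again did not overlap between groups. Shares sum to a fixed total, so a larger share of TNFRSF10B lowers the summed share of the others, and the shares were chosen after the single genes had been seen.

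FAS encodes the receptor for Fas ligand, on chromosome 10 from 88990582 to 89015785 on the plus strand. It had 626, 549 and 681 counts in controls and 588, 550 and 584 with ILL. The ILL libraries lay within the range of the controls in CPM. The log2 fold change was -0.04 (95% interval from -0.25 to 0.17, edgeR adjusted p = 0.71). The interval does not reach the rise seen in TNFRSF10B. An exon of ACTA2 on the opposite strand overlaps FAS, with 58 to 123 counts of its own across the 6 libraries.

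TNFRSF1A encodes TNF receptor 1, on chromosome 12 from 6328757 to 6342114. It had 6932, 6823 and 7069 counts in controls and 7386, 8064 and 7241 with ILL. The ILL libraries were higher, by a small margin, with 179 to 200 CPM in controls and 207 to 234 CPM with ILL. On the log2 scale the rise was 0.19 (SE 0.06, edgeR adjusted p = 0.0053). The call did not hold without control replicate 1 (log2 fold change 0.14, edgeR adjusted p = 0.062) or with libraries scaled by size only (0.12, edgeR adjusted p = 0.06). Nor did it hold in any limma fit on FPKM (0.12 in each, limma adjusted p from 0.082 to 0.14). In FPKM, control replicate 3, at 89, lay above ILL replicate 3, at 88.3.

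TNFRSF21 encodes DR6, a receptor with a death domain that does not bind TRAIL or Fas ligand, on chromosome 6 from 47231532 to 47309905. It had 9121, 8091 and 7929 counts in controls and 6416, 6616 and 6554 with ILL, the most counts of the 10 genes in controls. Every ILL library was below every control library, and TNFRSF21 fell by 0.29 on the log2 scale (SE 0.05, edgeR adjusted p = 1.2e-05).

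**Figure D2:**
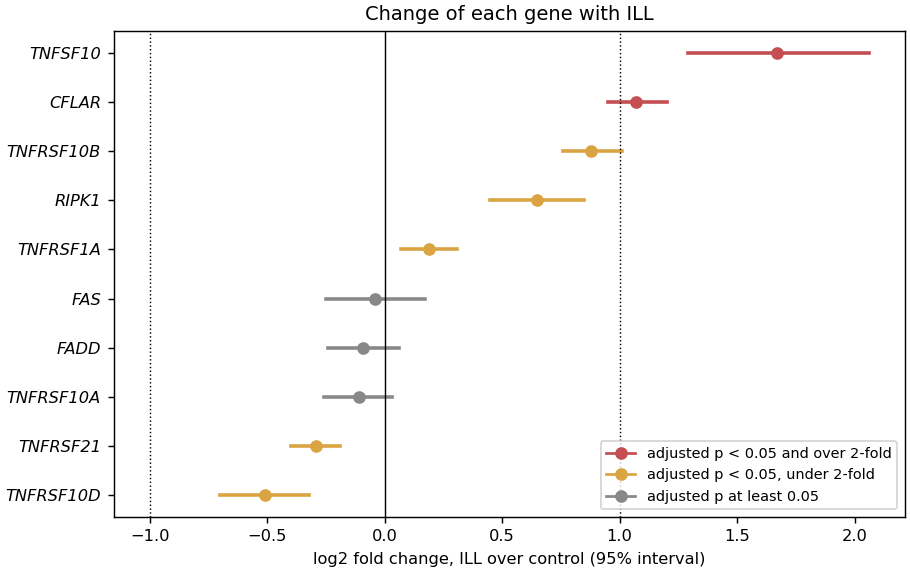
Log2 fold change of ILL over control for each of the 10 genes (point) with its 95% interval (line) from edgeR's quasi-likelihood fit, and dotted lines at a 2-fold change. TNFSF10 and CFLAR lie past the dotted line, the interval of TNFRSF10B reaches 1.01, and the intervals of FAS, FADD and TNFRSF10A include 0.

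FADD encodes the adaptor that links TRAIL receptors and FAS to procaspase-8, on chromosome 11 from 70203163 to 70207390. It had 1954, 1940 and 2173 counts in controls and 1900, 1843 and 1707 with ILL. The groups overlapped after normalization, at 55.7 ± 5.58 CPM and 52.2 ± 2.96 CPM (SD, n = 3 each). The difference of -0.09 on the log2 scale was not past the threshold (95% interval from -0.24 to 0.06, edgeR adjusted p = 0.26). With libraries scaled by size only it was -0.16 and passed narrowly (edgeR adjusted p = 0.049).

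CFLAR, which encodes the caspase-8 inhibitor c-FLIP, lies on chromosome 2 from 201116104 to 201176687 on the plus strand. It had 1979, 1765 and 1889 counts in controls and 3647, 3866 and 3812 with ILL. The libraries within each group were close together, at 51.5 ± 1.67 CPM (SD, n = 3) in controls and 108 ± 4.1 CPM (SD, n = 3) with ILL. CFLAR rose 2.11-fold (log2 1.07, SE 0.06, edgeR adjusted p = 2.9e-14), and the 95% interval of the log2 value, from 0.95 to 1.2, includes the 2-fold cutoff. CFLAR makes long and short forms of c-FLIP by splicing, and counts per gene do not separate them.

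RIPK1 encodes a kinase with a death domain that serves as a scaffold for NF-κB signaling and can start apoptosis or necroptosis. It lies on chromosome 6 from 3063991 to 3115187 on the plus strand. It had 500, 473 and 537 counts in controls and 713, 756 and 796 with ILL. All ILL libraries were above all controls, and RIPK1 rose 1.57-fold (log2 0.65, SE 0.10, edgeR adjusted p = 2.3e-06). Antisense genes overlap exons of CFLAR, RIPK1, FADD and TNFRSF10A in GENCODE release 29. Exons of CFLAR are also overlapped by a noncoding gene on its own strand and by a processed pseudogene on the opposite strand. Reads of all these overlapping genes were not separated here.

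Levels were compared between genes as FPKM, which divides by a gene length. In controls, TNFRSF1A was highest at 85.4 ± 4.59 FPKM (SD, n = 3), followed by TNFRSF21 at 63 ± 1.76, FADD at 33.4 ± 3.19, TNFRSF10B at 19.6 ± 1.24, TNFRSF10A at 14.6 ± 0.418 and TNFRSF10D at 8.86 ± 0.995. RIPK1 at 2.91 ± 0.238 and CFLAR at 2.78 ± 0.0793 overlapped between libraries, FAS was at 2.17 ± 0.242, and TNFSF10 was lowest at 0.81 ± 0.086. With ILL, TNFRSF10B at 34.4 ± 1.33 FPKM lay above FADD at 29.8 ± 1.73, with no overlap between libraries in either group. TNFSF10 at 2.46 ± 0.206 lay above FAS at 2.01 ± 0.0656, again with no overlap. CFLAR at 5.58 ± 0.177 and TNFRSF10D at 5.93 ± 0.473 were neighbours that overlapped with ILL. Parts of this order depend on the length behind the deposited FPKM, which the values give as 8010 bases for FAS, 3998 for TNFRSF10B, 2289 for TNFRSF1A and 1708 for FADD. The exons of these genes in GENCODE release 29 cover 4253, 5158, 4005 and 1841 bases. With the exon lengths, an alternative chosen after the data were seen, TNFSF10 stayed below FAS with ILL, at 2.12 ± 0.177 against 3.79 ± 0.124 (SD, n = 3 each). TNFRSF10B and FADD then overlapped with ILL, at 26.6 ± 1.03 and 27.7 ± 1.6, and TNFRSF21 lay above TNFRSF1A in controls, at 65.5 ± 1.83 and 48.8 ± 2.63. In controls FAS, at 4.09 ± 0.456, then lay above RIPK1 at 3.35 ± 0.274 and CFLAR at 2.34 ± 0.0668, with no overlap between libraries. With ILL, TNFRSF1A and TNFRSF21 then overlapped. CFLAR lay below TNFRSF10D with ILL, at 4.7 ± 0.149 and 5.92 ± 0.473, without overlap. Which gene of these pairs is higher is therefore not settled by these values, while the changes of each gene with ILL do not use a length.

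**Figure D3:**
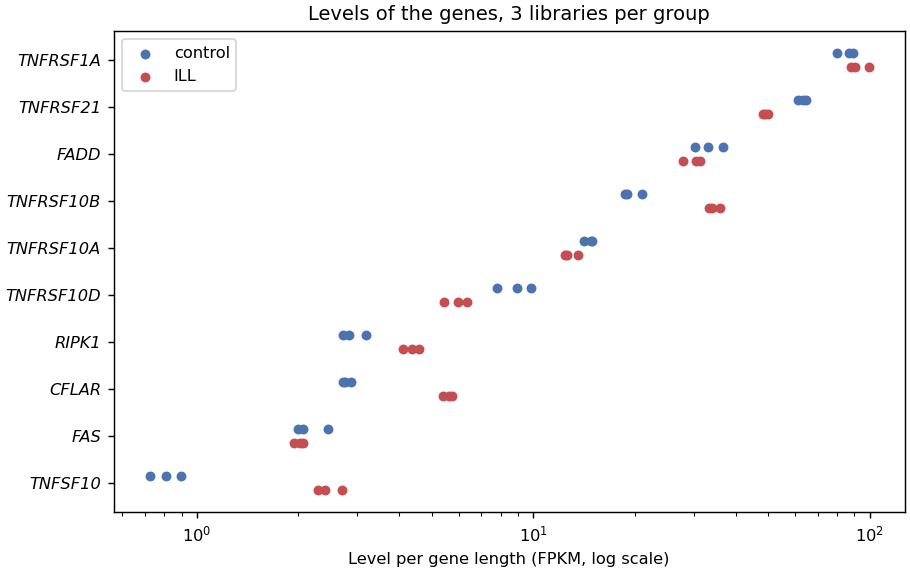
Level per gene length (FPKM, log axis) of the 10 genes in the 3 control and 3 ILL libraries, ordered by the control mean. On the deposited scale TNFRSF10B lies below FADD in controls and above it with ILL, and TNFSF10 likewise with FAS, but with exon lengths from GENCODE TNFSF10 lies below FAS in both groups, and TNFRSF10B overlaps FADD with ILL.

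Ratios of counts within a library do not depend on how libraries are scaled. The ratio of TNFRSF10B to TNFRSF10A was 2, 1.87 and 2.11 in controls and 3.94, 4.29 and 3.72 with ILL, a 2-fold difference. The ratio of TNFRSF10B to the decoy gene TNFRSF10D was 2.39, 2.71 and 2.42 in controls and 5.91, 7.47 and 6.43 with ILL, a 2.62-fold difference. In both, every ILL library lay above every control library. The ratio of CFLAR to FADD was 1.01, 0.91 and 0.869 in controls and 1.92, 2.1 and 2.23 with ILL. The ratio of CFLAR to CASP8, the inhibitor to the caspase it resembles, was 1.19, 1.25 and 1.17 in controls and 2.72, 2.94 and 2.93 with ILL, a 2.38-fold difference. The ratio of the ligand gene TNFSF10 to TNFRSF10B was 0.0353, 0.0323 and 0.0257 in controls and 0.054, 0.056 and 0.0503 with ILL, so the ligand transcript was higher also relative to the receptor that rose. Each of the 5 ratios had p = 0.1 in an exact two-sided permutation test of 3 against 3 libraries, the smallest p this design allows, so none can pass a threshold of 0.05.

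Beyond the 10 genes, 61 further genes of the pathway were examined in 6 groups, of which 55 were tested. Of these, 16 were DEGs higher with ILL, against 12.5% of all tested genes, and 1 was lower, against 11.4%. The median log2 fold change of the 55 was 0.33. The groups of genes were drawn up with earlier results of these data known, so these counts are descriptions. Among other receptors and decoys, 2 of 6 tested genes were higher, TNFRSF10C and EDAR, the latter a receptor with a death domain for ectodysplasin, with a log2 fold change of 1.53 from 41 to 80 counts in controls to 153 to 202 with ILL. TNFRSF6B, a soluble decoy for Fas ligand, rose by 0.45 on the log2 scale (edgeR adjusted p = 8.5e-09), from 411 ± 5.18 CPM to 561 ± 20.3 CPM (SD, n = 3 each). Among other ligands, TNFSF15, which encodes TL1A, rose by 2.17 on the log2 scale, from 100 to 105 counts in controls to 398 to 475 with ILL, while its receptor gene TNFRSF25 was at 7.16 CPM in both groups. FASLG, TNF and LTA were too low to be tested. FASLG had at most 1 count and TNF at most 10 counts in any library.

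The death-inducing complex and caspases had 0 DEGs among 14 tested genes, by edgeR and by DESeq2. By edgeR, 12.5% of all tested genes were higher DEGs and 11.4% lower. DESeq2 called 1743 of its 15011 tested genes higher and 1498 lower. In the edgeR fit, 12 of the 14 had an unadjusted p under 0.05, 5 of them higher and 7 lower. That share was 74.6% over all tested genes in either direction. CASP8, the initiator caspase, had 1659, 1414 and 1619 counts in controls and 1341, 1317 and 1303 with ILL. It fell by 0.18 on the log2 scale (edgeR adjusted p = 0.025), a call that did not hold without control replicate 3 (-0.13, edgeR adjusted p = 0.12) or without ILL replicate 3 (-0.16, edgeR adjusted p = 0.071). FAF1, whose product binds FAS, fell by 0.96 (edgeR adjusted p = 7.4e-12), just under the 2-fold cutoff.

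In the TNF receptor complex and necroptosis group, 6 of 18 tested genes were DEGs, all of them higher with ILL. Over all tested genes, 12.5% were higher DEGs and 11.4% lower. RIPK3, the kinase that RIPK1 activates in necroptosis, rose by 2.02 on the log2 scale (SE 0.14, edgeR adjusted p = 3.7e-12), with 124, 125 and 114 counts in controls and 439, 445 and 522 with ILL. MLKL, the effector that RIPK3 phosphorylates, had a log2 fold change of -0.04 (edgeR adjusted p = 0.73). The ubiquitin ligase gene BIRC3 rose by 1.74 and RBCK1, a subunit of the linear ubiquitin ligase complex, by 1.54. CYLD, a deubiquitinase that acts on RIPK1, rose by 1.40, TNFAIP3, which encodes the ubiquitin-editing protein A20, by 1.22, and the adaptor gene TRADD by 1.19. TRAF2, an adaptor that recruits BIRC3 to the receptor, fell by 0.96 (edgeR adjusted p = 2.2e-09), from 838 to 906 counts in controls to 385 to 446 with ILL.

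Among genes of receptor modification and turnover, ADAM17, the protease that sheds TNF and TNF receptor 1, rose by 1.20 on the log2 scale. MARCHF8, a membrane ubiquitin ligase that acts on DR4, rose by 1.34. GALNT14, an enzyme that adds sugars to TRAIL receptors, fell by 1.37 (SE 0.14, edgeR adjusted p = 6.5e-09), with 556, 452 and 480 counts in controls and 226, 144 and 178 with ILL, the 1 lower DEG of the 6 groups. Of regulators of receptor transcripts, 5 of 9 rose past the cutoffs, against 12.5% of all tested genes. DDIT3, which encodes CHOP, a factor known to bind the TNFRSF10B promoter, was at 6.15 ± 0.538 CPM in controls and 37.7 ± 0.58 CPM with ILL (SD, n = 3 each), a 6.13-fold rise. ATF3, TRIB3 and ATF4, genes of the integrated stress response, rose by 3.42, 3.07 and 1.74 on the log2 scale. ERN1, which encodes the stress sensor IRE1, rose by 1.34. Whether these regulators had a part in the changes of the 10 genes was not tested.

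**Figure D4:**
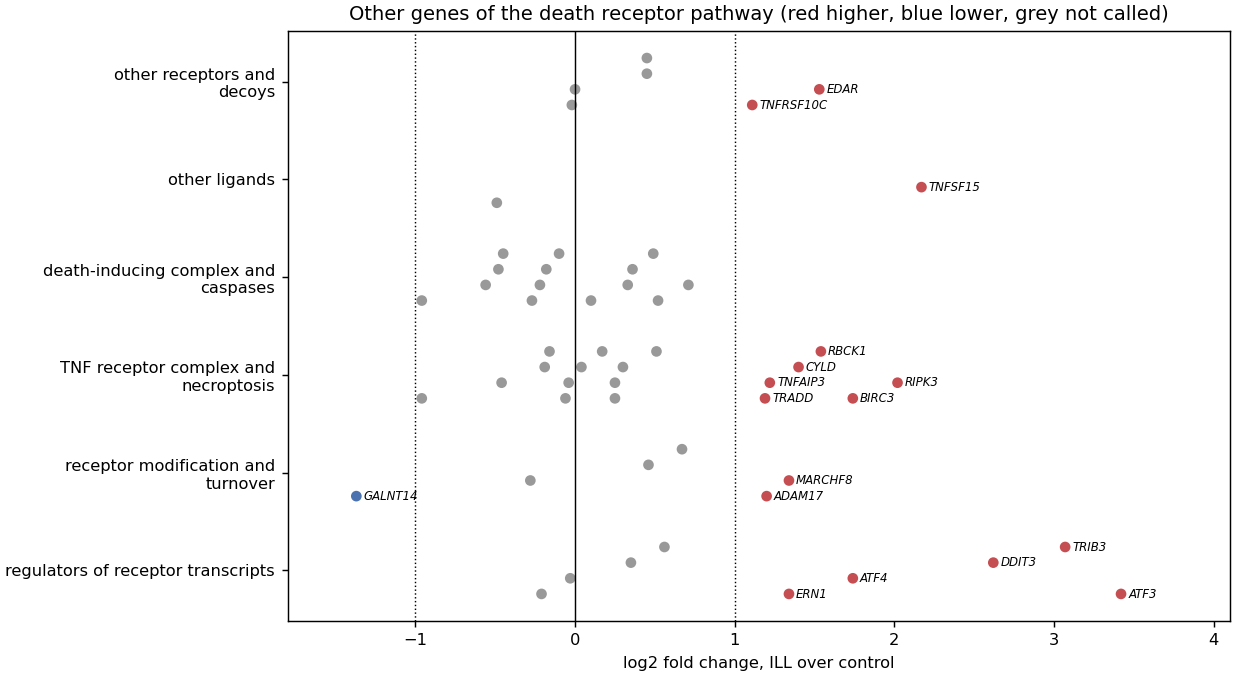
Log2 fold change of ILL over control for the 55 tested genes of 6 pathway groups (1 point per gene), with dotted lines at a 2-fold change and the DEGs labelled. The 16 higher DEGs lie to the right and GALNT14 to the left, and the death-inducing complex and caspases lie between the dotted lines.

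Likeness of profile was measured as the root mean square difference of log2(CPM + 1) over the 6 libraries, each gene centred on its control mean, among 12048 genes. The genes most like TNFRSF10B were TMEM44, NRCAM and ACTN1, with differences of 0.021, 0.025 and 0.027. For CFLAR they were LIMA1, PTK6 and MYO1D, with 0.020, 0.021 and 0.024, and for TNFSF10 they were PLXNB3, FAM43A and IGFBP3, with 0.043, 0.044 and 0.060. With a control group and a treated group only, this measure mostly finds genes that changed by a like amount on the log2(CPM + 1) scale. In the edgeR fit the neighbours of TNFSF10 had log2 fold changes of 1.37 to 1.4, against 1.67 for TNFSF10 itself.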

How the data were processed

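RNA of HCCC9810 cells was sequenced in 3 control and 3 ILL libraries. Raw counts for each gene symbol were deposited, 1 column a library, beside FPKM values, which are the deposited counts divided by a gene length and the library total (100% of 88055 nonzero values were returned within 0.1%). The submitters' processing notes name GRCh38 and DESeq2. The aligner, counting program and annotation are not given in the sources used here. Counts were filtered with filterByExpr, normalized by TMM and tested with edgeR's quasi-likelihood test (edgeR 4.0.16, limma 3.58.1, DESeq2 1.42.0, R 4.3.3) with Benjamini-Hochberg adjustment over 13066 genes. Standard errors are the log2 fold change divided by the root of the F statistic. On simulated counts for 12961 genes of ILL against control, 200 well-counted genes were changed by 1.5 on the log2 scale, equally many up and down. The fit called 100% of these and 3 unchanged genes. Smaller changes, and changes in as large a share of genes as in these data, were not simulated. Deviations of same-numbered libraries from their group means had correlations of 0.01, -0.02 and -0.06. With 3 libraries a group, these cannot show whether same-numbered libraries were handled together, and the labels do not say. Named are the 10 genes, every DEG of the 6 pathway lists, and at most 3 other genes per list where a result turns on them. The members and lists were chosen with earlier results of these data known. Positions are from GENCODE release 29 on GRCh38. Some genes of the lists are not reported here.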

Additional observations from a re-analysis of the deposited data

How the results depend on the processing

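Among the 10 genes, TNFSF10 and CFLAR were the higher DEGs and 0 were lower in each fit that left out 1 library, with DESeq2's Wald test, with a minimum of 10 counts in each library or none, and with scaling by DESeq2's size factors or by library size only. Dropping the fold change cutoff itself gave 5 higher and 2 lower. With limma on log2(FPKM + 1) the higher DEGs were 0, with and without a filter at a mean FPKM of 1, and with limma on log2(FPKM + 0.1) there was 1, TNFSF10. A pseudocount draws in the fold change of genes with low FPKM, and the FPKM fits also use no TMM scaling. CFLAR had 1765 to 1979 counts in controls but a mean of only 2.78 FPKM. Its log2 fold change was 0.80 at the lowest, with a pseudocount of 1, and 0.98 with 0.1. With counts scaled by library size only it was 1 after rounding. The part of the pseudocount in this was not tested. At an adjusted p under 0.05 alone, library size only gave 4 lower genes in place of 2, adding TNFRSF10A and FADD. Limma on log2(FPKM + 0.1) put the median over all genes at -0.101 (log2). FAS, at -0.04 with all libraries, ranged from -0.10 to 0.05 as single libraries were left out, with 0.05 without control replicate 3.

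For the 6 pathway lists, the 16 higher DEGs became 30 without the fold change cutoff and 10 with limma on log2(FPKM + 1), with or without the filter. The 1 lower DEG became 13 without the cutoff. It became 3 with library size only and with limma on log2(FPKM + 0.1), adding FAF1 and TRAF2, and 3 with no filter and with DESeq2. Leaving out 1 library gave 1 to 2 lower DEGs, NGFR, named here after its values were seen, being added without control replicate 1 and without each ILL replicate. The cause was not tested. The 5 ratios moved by less than the spread between replicates as single libraries were left out. Ratios of FPKM give the same differences by construction, as length and library total cancel. Of 38 single genes followed, 33 held the same sign and adjusted p call throughout, and the exceptions were TNFRSF10A, TNFRSF1A, FAS, FADD and CASP8. Apart from values that round to 2-fold, 9 of the 38 crossed the 2-fold cutoff in some alternative. TNFSF10, CFLAR, CYLD, EDAR, ERN1 and MARCHF8 did so in limma fits on FPKM only, FAF1 and TRAF2 as given above, and TNFRSF10C with limma on log2(FPKM + 1), without control replicate 2 and without ILL replicate 3, so that the higher DEGs were 15 without either library. With gene lengths from GENCODE exons, an alternative chosen after seeing the data, the log2 ratio of TNFRSF10B to FADD went from 0.21 to -0.05 with ILL and from -0.77 to -1.03 in controls, and that of TNFSF10 to FAS from 0.29 to -0.84 and from -1.42 to -2.55.

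With the replicate number as a block, 2 of the 10 genes were higher and 0 lower, and 16 and 1 of the pathway genes, with 1627 higher and 1484 lower DEGs over all genes, against 1635 and 1485 without it. The block changed no call of a named gene, and not every library correlated best with its own number. FASLG, TNF and LTA were not tested, and at these counts low expression and its absence cannot be told apart.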
